A study of Mus musculus with 480 samples.

Results

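A set of 10 genes of the 53379 in the count table was followed through 480 single mouse lung cells: Acly, Acaca, Fasn, Scd1, Scd2, Elovl1, Elovl6, Acsl4, Pcyt1a and Srebf1. They were chosen by name for their part in making fatty acids and phosphatidylcholine, and all 10 were found in the table by Ensembl identifier. The cells were tdTomato-positive lung epithelial cells sorted one to a well from 3 mouse reporter lines, 160 cells from each, on 5 plates of 96 wells. In Scgb1a1-TD mice (Scgba1a1-CreER;R26-tdtomato, as the labels spell it) a tamoxifen-responsive Cre under the promoter of the club cell gene Scgb1a1 switches on the red reporter. In Sftpc-TD mice (Sftpc-DreER;R26-RSR-tdtomato) a Dre recombinase under the promoter of the alveolar type 2 (AT2) gene Sftpc does so. In BASCs-Tracer mice (with Sftpc-DreER, Scgba1a1-CreER and, as reporter, R26-RSR-LSL-tdtomato) both recombinases are needed, so that the reporter marks cells that have used both promoters, among them bronchioalveolar stem cells (BASCs). All 3 lines thus carry a recombinase and the tdTomato reporter, and no line without them was among the samples. Neither the age of the mice, their number, nor a tamoxifen schedule is given in the sources used here.

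AT2 cells make pulmonary surfactant, a film made mostly of phosphatidylcholine with saturated chains. Cytosolic fatty acids are built from citrate: Acly releases acetyl-CoA, Acaca carboxylates it to malonyl-CoA, and Fasn joins these units into palmitate. Scd1 and Scd2 are stearoyl-CoA desaturases that place a double bond in the chain, Elovl6 and Elovl1 lengthen chains, Acsl4 couples free fatty acids (with a preference for arachidonate) to CoA, and Pcyt1a makes CDP-choline, the rate-limiting step of phosphatidylcholine synthesis. Srebf1 encodes SREBP-1, the transcription factor that drives many of these genes.

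The labels gave each cell a sub-type, and cells were grouped by line and sub-type: 15 club, 6 AT2, 1 ciliated cell and otherwise BASCs among the 160 of BASCs-Tracer; 97 club, 38 BASCs, 24 ciliated and 1 AT2 cell in Scgb1a1-TD; 11 BASCs and otherwise AT2 cells among the 160 of Sftpc-TD. How sub-types were assigned is not given in the sources used here; if expression was used, genes like these may have entered the assignment. Each cell held between 3379 and 3781974 reads assigned to genes, with a median of 1000465. Summed over 12 AT2 markers, the pooled level was 338667 CPM (read counts scaled to the same total in each cell or group) for the Sftpc-TD AT2 cells, 346322 for BASCs of BASCs-Tracer, 411761 in BASCs of Scgb1a1-TD, 32953 in club cells of Scgb1a1-TD and 3254 in ciliated cells. Over 12 club markers the same 5 groups held 16297, 26739, 12925, 372209 and 45049 CPM. BASCs of Scgb1a1-TD thus had a lower club marker sum than the AT2 cells, so the club markers on this list do not set the cells labelled BASCs in that line apart from AT2 cells. Leukocyte and macrophage markers (12 genes) summed to 12.3 to 82.9 CPM in these 5 groups, but to 770.4 CPM in the 11 BASCs of Sftpc-TD. Each line counts as 1 sample and cells are not replicates, so no p-value is given, and differences are set against the spread between plates and between cells.

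Upstream sequences of 5 genes are shown, 3 that were high together in AT2 cells and BASCs (Fasn, Acly, Elovl1), 1 whose pooled level was alike in club and AT2 cells (Pcyt1a) and 1 that was hardly read (Elovl6). Each line holds the 250 bases before the annotated start, 5′ to 3′ on the gene's strand, from RefSeq on GRCm38.p6, and capitals mark motif matches on either strand.
Fasn (chr11:120824548-120824797, minus strand): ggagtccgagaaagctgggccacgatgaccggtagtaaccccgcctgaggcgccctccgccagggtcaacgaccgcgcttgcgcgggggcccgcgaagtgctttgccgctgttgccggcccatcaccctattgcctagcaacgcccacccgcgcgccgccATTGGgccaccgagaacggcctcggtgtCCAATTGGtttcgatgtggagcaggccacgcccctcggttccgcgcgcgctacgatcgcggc
Acly (chr11:100528001-100528250, minus strand): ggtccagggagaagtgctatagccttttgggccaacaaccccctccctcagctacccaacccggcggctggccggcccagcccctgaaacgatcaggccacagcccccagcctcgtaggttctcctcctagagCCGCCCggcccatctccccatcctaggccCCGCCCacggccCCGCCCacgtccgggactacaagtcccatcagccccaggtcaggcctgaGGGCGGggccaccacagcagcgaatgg
Elovl1 (chr4:118427843-118428092, plus strand): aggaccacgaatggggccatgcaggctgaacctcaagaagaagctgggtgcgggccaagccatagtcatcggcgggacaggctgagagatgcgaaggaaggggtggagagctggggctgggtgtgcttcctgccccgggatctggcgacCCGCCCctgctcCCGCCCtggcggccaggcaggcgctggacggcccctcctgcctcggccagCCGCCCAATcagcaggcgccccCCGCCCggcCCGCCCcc
Pcyt1a (chr16:32430671-32430920, plus strand): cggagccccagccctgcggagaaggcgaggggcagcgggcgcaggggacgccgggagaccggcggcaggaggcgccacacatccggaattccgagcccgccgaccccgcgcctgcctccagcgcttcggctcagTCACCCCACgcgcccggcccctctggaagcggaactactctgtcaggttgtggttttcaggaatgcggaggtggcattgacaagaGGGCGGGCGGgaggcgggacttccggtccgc
Elovl6 (chr3:129532136-129532385, plus strand): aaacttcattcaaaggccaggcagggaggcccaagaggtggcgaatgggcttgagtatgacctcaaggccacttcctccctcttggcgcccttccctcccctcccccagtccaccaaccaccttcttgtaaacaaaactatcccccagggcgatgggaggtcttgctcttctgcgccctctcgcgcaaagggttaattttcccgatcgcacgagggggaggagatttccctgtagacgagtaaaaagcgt

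A total of 4 motifs was searched on both strands: TCACNCCAC for a sterol regulatory element, CACGTG for an E-box, CCAAT for the NF-Y box and GGGCGG for a GC box. The Fasn window held 3 CCAAT matches, 2 of which overlap on opposite strands. Acly held 4 GC boxes, and Elovl1 held 5 GC boxes and 1 CCAAT that overlaps one of them. The Pcyt1a window held 1 sterol regulatory element match and 2 overlapping GC boxes, and the Elovl6 window held none of these letters. Promoters were found in the table for 8 of the 10 genes, with 13 starts in all, and none for Scd1 and Scd2. Of these 8 genes, 3 had a CCAAT, 5 a GC box, 1 the sterol regulatory element and 0 an E-box in at least 1 window. Over all 32851 windows of the same length the shares were 33.85%, 32.74%, 1.05% and 6.02%. These are shares of single windows, whereas a gene with several starts could match in any of its windows, so the units differ. A match is a description of the letters and not a measured binding site.

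Levels are given first per cell, as CPM of that cell's reads, because they show how the genes varied. Fasn, the synthase itself, had a lowest, median and highest level of 0, 660 and 2691 CPM in the AT2 cells of Sftpc-TD. In the BASCs of BASCs-Tracer these were 10.2, 752 and 3843 CPM, and in the 38 BASCs of Scgb1a1-TD they were 223.1, 1020 and 2284 CPM. In the 97 club cells of Scgb1a1-TD they were 0, 30.5 and 934 CPM, and in the 24 ciliated cells 0, 11.9 and 176.2 CPM. The groups overlapped at their edges, but 95.3% of AT2 cells, 93.5% of tracer BASCs and 100% of the Scgb1a1-TD BASCs stood above 100 CPM, against 35.1% of club and 8.33% of ciliated cells.

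Acly, which supplies the acetyl-CoA, followed the same order of medians as Fasn. Its per-cell median was 301.1 CPM in AT2 cells, 310 in tracer BASCs, 382.6 in Scgb1a1-TD BASCs, 75.5 in club cells and 4.85 in ciliated cells. By median, club cells thus lay nearer to AT2 cells in Acly than in Fasn, and further above ciliated cells. The second point did not hold for reads pooled over cells. Pooled, ciliated and club cells held 81 and 126.2 CPM of Acly, and 35.6 and 98.2 CPM of Fasn. Acaca, which makes malonyl-CoA, was low everywhere and uneven from cell to cell: its medians were 20.4, 19.7, 56.9, 0 and 0.385 CPM in the same groups. At the upper quartile Acaca reached 96.5, 155.4, 145.9, 5.79 and 3.19 CPM. After each cell was thinned to 100000 reads, which left out 12 shallower cells, Acaca was read in 62.2% of AT2 cells (95% Clopper-Pearson interval 53.83 to 69.997), 57.1% of tracer BASCs (48.3 to 65.7), 78.4% of Scgb1a1-TD BASCs (61.8 to 90.2) and 25.5% of club cells (17.1 to 35.6). Unthinned, the shares were 77.2%, 76.1%, 89.5% and 42.3%. The intervals cover counting error only. PCR copies without molecular identifiers are not independent molecules.

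**Figure D1:**
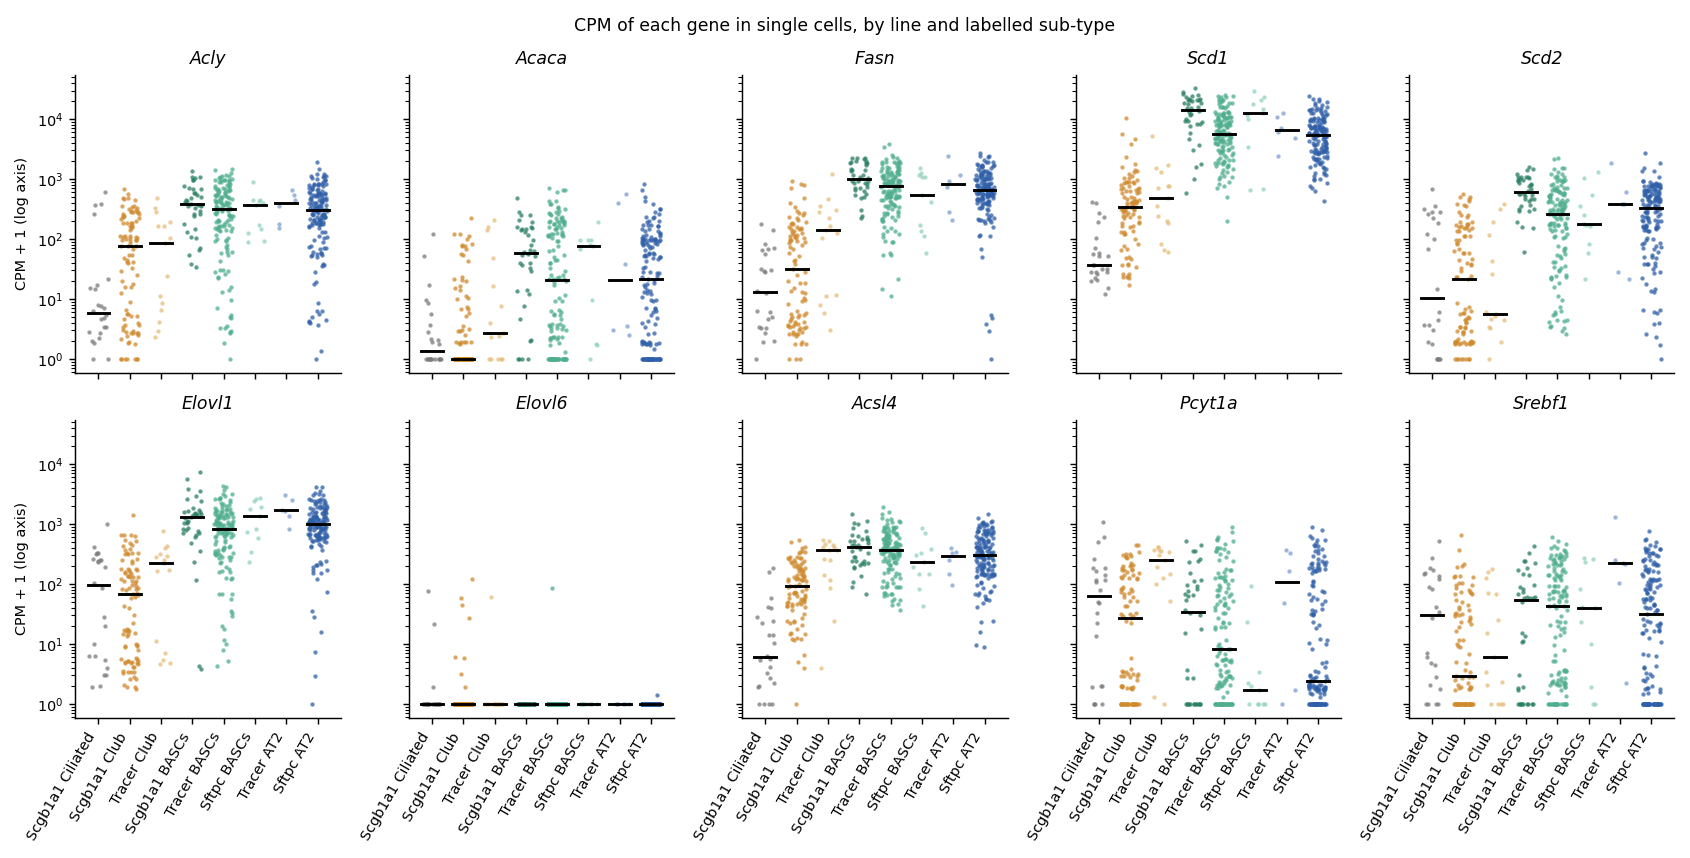
Each point is 1 cell, the y axis is CPM with 1 added on a log scale, black bars are medians, and the 8 groups with at least 5 cells run from ciliated and club cells on the left to AT2 cells on the right. Scd1 medians lie at 5406 CPM in AT2 cells and 345.7 CPM in club cells of Scgb1a1-TD, while Elovl6 lies at 0 in nearly every cell.

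Scd1 was by far the most read of the 10 genes. Its lowest, median and highest levels were 429.03, 5406 and 24419 CPM over the Sftpc-TD AT2 cells, 195.4, 5559 and 24962 in tracer BASCs, 579, 14300 and 32948 in Scgb1a1-TD BASCs, and 649, 12694 and 29450 over the 11 Sftpc-TD BASCs. In club cells they were 16.01, 345.7 and 10598 CPM, and in ciliated cells 11.001, 36.04 and 412.7 CPM. By median the order was Scgb1a1-TD BASCs, Sftpc-TD BASCs, the 6 tracer AT2 cells (6622 CPM), tracer BASCs, AT2 cells, the 15 tracer club cells (487 CPM), club cells and ciliated cells. The interquartile ranges of neighbours in this order overlapped except at 2 places: between AT2 cells (lower quartile 2789 CPM) and tracer club cells (upper quartile 1053 CPM), and between club cells (lower quartile 157.5 CPM) and ciliated cells (upper quartile 77.1 CPM).

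Scd2, the second desaturase, had per-cell medians of 331.4 CPM in AT2 cells, 265.5 in tracer BASCs, 601 in Scgb1a1-TD BASCs, 20.97 in club cells and 9.56 in ciliated cells. In ciliated cells a part of the cells was high, with an upper quartile of 235.6 CPM and a highest cell of 695 CPM. Dividing pooled CPM by the length of all annotated exons allows the genes to be compared with each other. Per kb of exon, Scd1 stood at 1390 CPM in AT2 cells and Scd2 at 74.3, a ratio of 18.7. The ratio of the Scd1 to the Scd2 level per kb was 21.9 in tracer BASCs, 22.9 in Scgb1a1-TD BASCs, 46.1 in Sftpc-TD BASCs, 7.95 in club cells, 12.01 in tracer club cells and 0.706 in ciliated cells. Ciliated cells were thus the only one of the 8 groups in which the pooled Scd2 level per kb exceeded that of Scd1. Of the 24 ciliated cells, 14 (58.3%) still had more Scd1 than Scd2 per kb, so the pooled ratio there rested on cells with high Scd2. In the longest transcripts of both genes, 2.68% of the 50-base windows of Scd2 occur in Scd1. Reads from such windows could be counted for either gene or dropped.

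The levels per kb place the genes in the whole transcriptome. Among the 53274 genes with an annotated length, Scd1 stood at rank 22 both in AT2 cells and in tracer BASCs, at rank 14 in Scgb1a1-TD BASCs and at rank 3369 in ciliated cells. Elovl1, which lengthens very long saturated chains, was second of the 10 genes in AT2 cells at 432.4 CPM per kb, rank 65, followed by Acly (79.7), Acsl4 (75.5), Scd2 (74.3), Fasn (72.9), Srebf1 (17.04), Pcyt1a (11.8), Acaca (3.99) and Elovl6. In club cells Elovl1 stood at 48.4 CPM per kb and in ciliated cells at 58.7, where it was the highest of the 10. Scd1 alone took 66.2% of all reads of the 10 genes in AT2 cells, 69.2% in tracer BASCs, 75.5% in Scgb1a1-TD BASCs, 46.9% in club cells and 10.1% in ciliated cells.

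**Figure D2:**
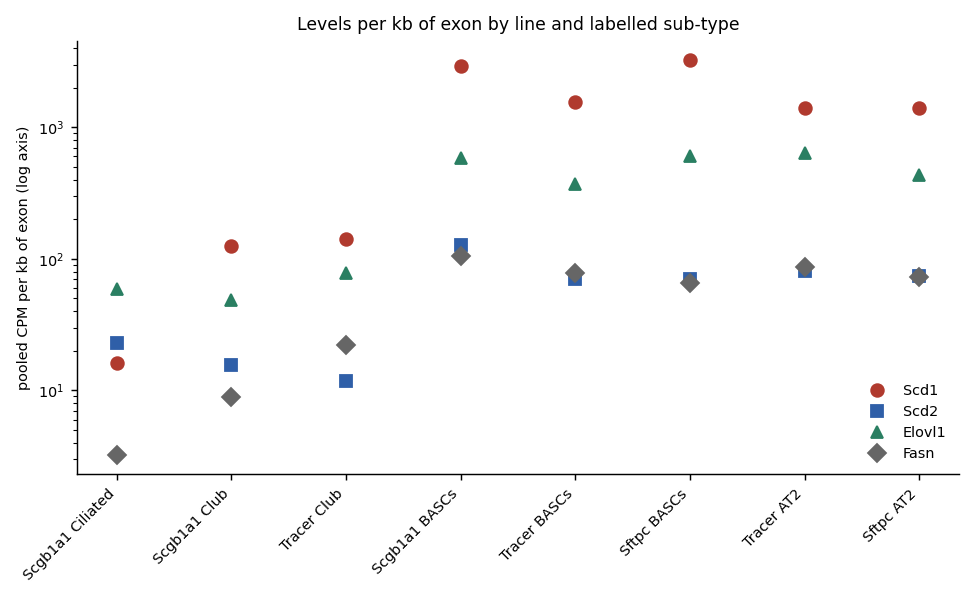
The y axis is pooled CPM per kb of exon on a log scale for 4 genes, and the x axis holds the 8 groups with at least 5 cells. Scd1 lies above the other 3 genes in all groups except ciliated cells, where it lies at 16.1 against 22.8 for Scd2 and 58.7 for Elovl1.

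Elovl1 per cell had medians of 1008 CPM in AT2 cells, 842 in tracer BASCs, 1297 in Scgb1a1-TD BASCs, 68.5 in club cells and 94.9 in ciliated cells. In the order of medians, only the step from tracer BASCs (lower quartile 329.5 CPM) to tracer club cells (upper quartile 302.1 CPM) had interquartile ranges that did not overlap. The related elongase Elovl6, which extends palmitate to stearate, behaved unlike the rest. It had 0 reads in the BASCs of Scgb1a1-TD, which allows a level of up to 0.07547 CPM (3 reads of the total), and 0 in the BASCs of Sftpc-TD, which allows up to 0.2387 CPM. In AT2 cells of Sftpc-TD, 1 read of Elovl6 was counted over all cells together. It was read in 8.25% of club cells and in 3 of the 24 ciliated cells, with a highest cell of 120.4 CPM among club cells and 76.01 CPM among ciliated cells. It stayed under 5 CPM in every pooled group, the minimum set here for a comparison, so 9 of the 10 genes were compared.

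Acsl4 lay at a similar level in AT2 cells, tracer BASCs and tracer club cells, but lower in club cells of Scgb1a1-TD. Its medians were 303.9 CPM in AT2 cells, 375.9 in tracer BASCs, 415.5 in Scgb1a1-TD BASCs, 363.96 in tracer club cells and 92.1 in club cells of Scgb1a1-TD, against 4.99 in ciliated cells. Of the steps in that order only the one from club cells (lower quartile 45.7 CPM) to ciliated cells (upper quartile 23.8 CPM) had ranges that did not overlap.

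Pcyt1a, the choline branch enzyme, did not share the order of the fatty acid genes. Its pooled level was 87.7 CPM in AT2 cells, 85.3 in tracer BASCs, 88.8 in Scgb1a1-TD BASCs and 78.9 in club cells. Those near-equal sums came from few cells: 24.8% of AT2 cells, 23.2% of tracer BASCs, 26.3% of Scgb1a1-TD BASCs and 29.9% of club cells exceeded 100 CPM, while the medians were 1.44, 7.18, 33.9 and 26.3 CPM. Pcyt1a was higher in the 15 tracer club cells, with a median of 255.4 CPM and 73.3% of cells above 100 CPM. In the 11 BASCs of Sftpc-TD it reached 92.7 CPM in the highest cell, with a pooled level of 8.91 CPM. Exons on the opposite strand from 2210020O09Rik and Slc51a overlap 9.09% of its exon length. The Nextera XT libraries named in the labels do not mark strand, so reads there cannot be told apart.

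Srebf1, the regulator, was low and patchy. Its median was 30.7 CPM in AT2 cells, 41.8 in tracer BASCs, 53.1 in Scgb1a1-TD BASCs, 1.89 in club cells and 30.1 in ciliated cells. It was read after thinning in 61.5% of AT2 cells (53.1 to 69.4), 65.4% of tracer BASCs (56.7 to 73.4), 44.7% of club cells (34.4 to 55.3) and 12 of the 24 ciliated cells (29.1% to 70.9%). Unthinned, these shares were 74.5%, 84.8%, 63.9% and 83.3%. The Srebf1 medians of ciliated and AT2 cells thus lay close together although those of Fasn and Scd1 lay far apart. The ciliated value rested on plate 3, whose 13 cells had a median of 41.03 CPM, against 3.81 CPM in the 5 cells of plate 2 and 3.08 CPM in the 6 of plate 4.

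The line comparisons used pooled CPM with 1 CPM added, on the log2 scale, and a gene was counted where it was 2-fold or more apart. Within the Scgb1a1-TD line, on the same 3 plates, 8 of 9 measured genes were higher in BASCs than in club cells and 0 lower, where 17.2% of all 10631 measured genes were higher and 24.7% lower. Scd1 was 4.54 higher (3.87 to 5.36 over 9 pairs of plates), Elovl1 3.59 higher (2.95 to 4.65), Fasn 3.53 higher (2.72 to 3.84), Scd2 3.001 higher (2.23 to 3.47) and Acaca 2.71 higher (1.26 to 4.72). Acsl4 was 1.91, Acly 1.81 and Srebf1 1.19 higher, and each of these 8 differences had 1 sign in all 9 plate pairs. Pcyt1a differed by 0.17, with plate pairs from -0.49 to 2.43, and so stayed within its spread. The median over the 9 genes was 2.71, against -0.12 over all genes.

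Across lines the fatty acid genes of AT2 cells stood apart from club cells in the same direction. In AT2 cells of Sftpc-TD against club cells of Scgb1a1-TD, 8 of 9 genes were higher and 0 lower (19.5% of all genes higher and 15.8% lower), with a median log2 difference of 2.23 (1.88 to 2.61 over 6 plate pairs). In tracer BASCs against the same club cells the counts were again 8 and 0 (18.5% and 15.2% of all genes), with a median of 2.15 (1.53 to 2.71). These 3 comparisons share the club cells of Scgb1a1-TD, so they are not independent of each other. Fasn was 3.01 higher in AT2 cells and 3.10 higher in tracer BASCs, and Scd1 3.47 and 3.63 higher. Acaca had the widest spread over plates, from 0.57 to 4.20 in the first and from 0.49 to 4.81 in the second. On plate 2 alone, which held both lines, the tracer BASC median was 1.53.

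The pooled sum of 11 circadian output genes differed between lines for the same sub-type, and also between sub-types of the same line. Among BASCs the sum was 479.4 CPM for BASCs-Tracer, 198.7 for Scgb1a1-TD and 621 for Sftpc-TD. Club cells held 914.6 CPM in BASCs-Tracer against 466.3 in Scgb1a1-TD, whose ciliated cells held 861.2. For AT2 cells the sums were 917 CPM (Sftpc-TD) and 748.9 CPM (the 6 tracer cells). Among 4 measured sex-linked genes, 1 was higher and 3 lower in AT2 cells of Sftpc-TD than in club cells of Scgb1a1-TD. Their part in the differences between lines was not tested, and line, mouse and plate cannot be told apart where a plate held 1 line.

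**Figure D3:**
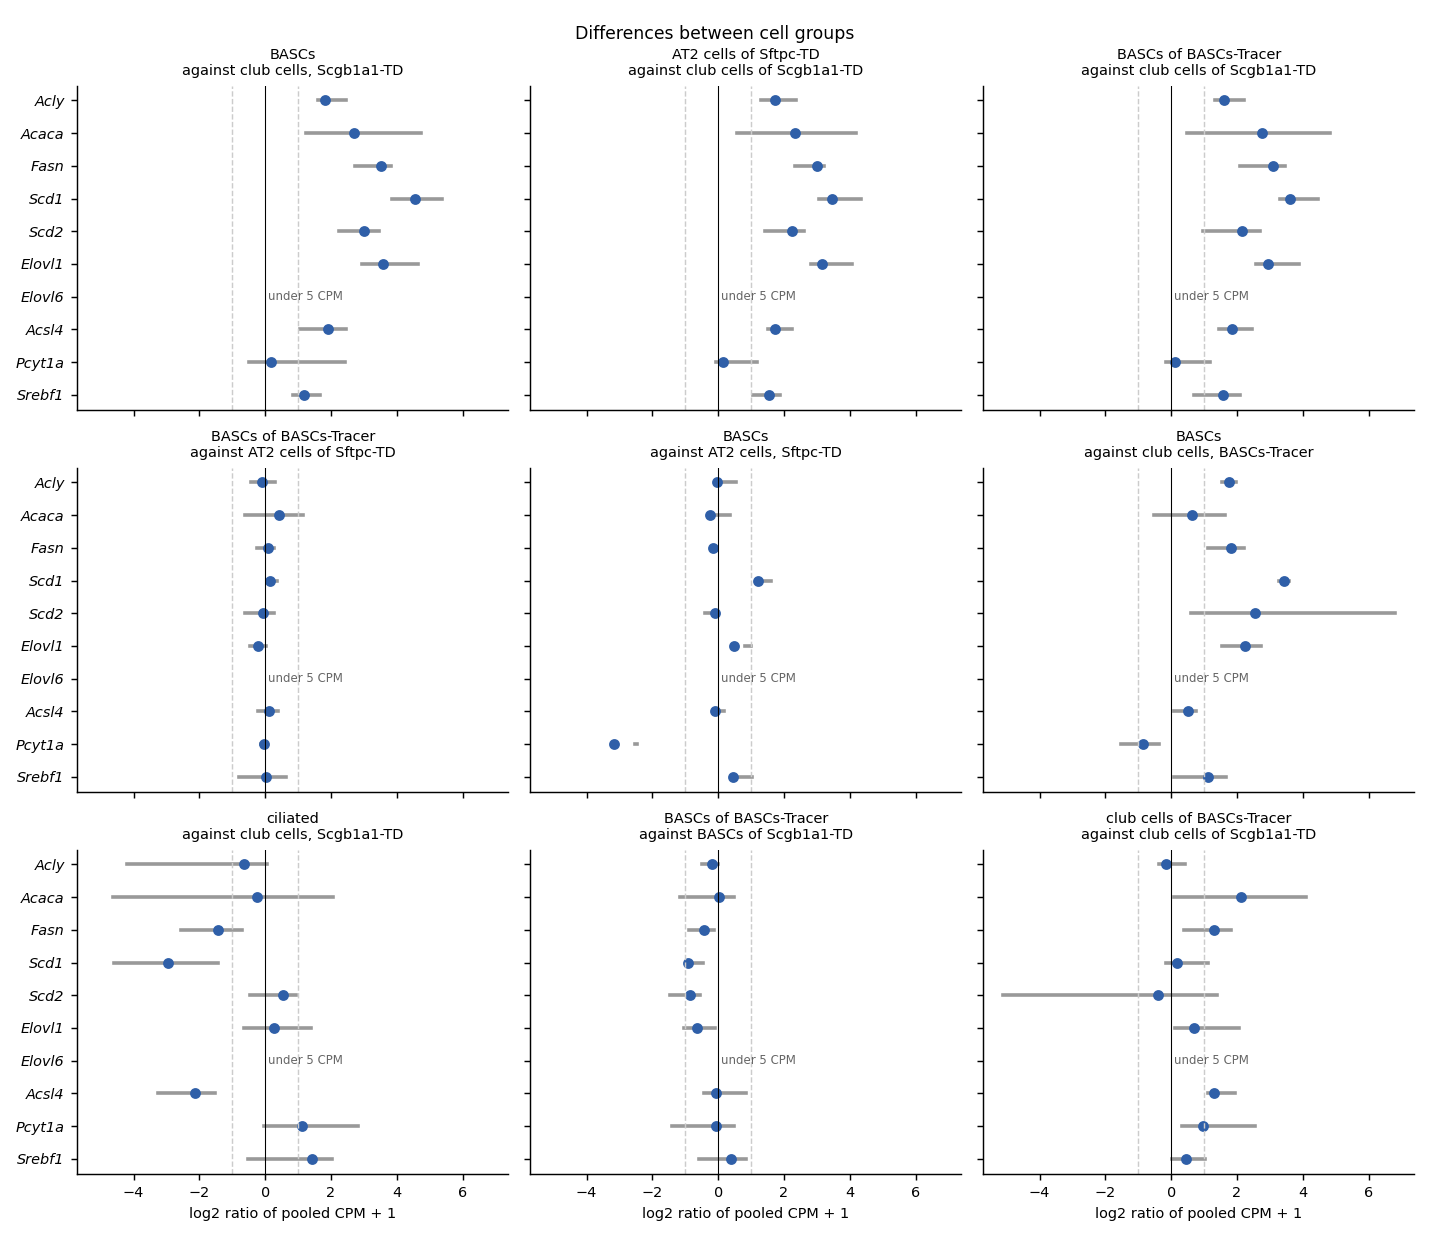
Points are log2 ratios of pooled CPM with 1 added in 9 comparisons, grey bars the range over pairs of plates with at least 5 cells each, and dashed lines mark 2-fold. In the top row 8 of 9 measured genes lie to the right of the 2-fold line and Pcyt1a lies near 0, and in the comparison of tracer BASCs with AT2 cells all 9 lie within the lines.

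Between tracer BASCs and AT2 cells none of the 9 measured genes was 2-fold apart (0 higher and 0 lower, against 9.9% and 9.17% of all genes), and the median difference was 0.03 (-0.42 to 0.27 over 4 plate pairs). The ranges over plate pairs were 0.05 to 0.35 for Scd1, -0.26 to 0.27 for Fasn and -0.46 to 0.01 for Elovl1. The shift with most spread was that of Acaca, 0.42 with a range of -0.62 to 1.16. Of 10 measured circadian genes 7 were lower in tracer BASCs, and of 4 measured sex-linked genes 3 were higher and 1 lower. This pair differed in both line and sub-type, which cannot be told apart here.

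The 11 cells of Sftpc-TD labelled BASCs differed from the AT2 cells of the same line in 2 of the 9 genes. Scd1 was 1.21 higher (1.41 to 1.62 against the 2 AT2 plates, from plate 5 cells alone) and Pcyt1a differed by -3.16 (-2.52 to -2.46). Among all genes 16.6% were higher and 35.4% lower, and 1 of the 9 genes in each direction is under both shares. With median-of-ratios scaling 23.4% of all genes were higher and 28.9% lower. The leukocyte markers of these BASCs summed to 770.4 CPM, with 15004 CPM in the highest cell, against 36.6 CPM in the AT2 cells. Without the 5 BASCs and the AT2 cells holding 50 CPM or more of these markers, Scd1 was 0.99 higher, just under 2-fold, and Pcyt1a differed by -3.51. Acaca then differed by -1.26, and 51.2% of all genes were lower and 16.98% higher. Over all cells Elovl1 was 0.47 and Srebf1 0.45 higher, Fasn differed by -0.14, and the median over the 9 genes was -0.09. That median was 0.10 without the cells holding these markers. The count of genes higher also went to 0 after thinning.

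Within BASCs-Tracer, 6 of 9 genes were higher in BASCs than in the 15 club cells and 0 lower, against 31.8% and 21% of all genes. Scd1 was 3.44 higher (3.27 to 3.57 over 4 plate pairs), Elovl1 2.25, Fasn 1.81 and Acly 1.76 higher. Scd2 was 2.56 higher but ranged from 0.61 to 6.80 over the plate pairs, and its tracer club cells had a median of 4.59 CPM. Srebf1 was 1.13 higher (0.07 to 1.66), and 0.78 higher without 1 tracer club cell, the ninth. Acsl4 (0.53) was not 2-fold apart. Neither was Acaca (0.62), but that same club cell held 652 of the Acaca reads of its group, and without it Acaca was 2.26 higher in BASCs. Scd1 was then 4.20 higher. Over all cells Pcyt1a differed by -0.85, below 0 in all 4 plate pairs. Without that club cell Pcyt1a differed by -1.21, more than 2-fold lower.

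Ciliated cells stood apart from club cells gene by gene. Scd1 differed by -2.94 (-4.60 to -1.43 over 9 plate pairs), Acsl4 by -2.12 (-3.25 to -1.54) and Fasn by -1.44 (-2.55 to -0.70), each below 0 in all 9 pairs. Srebf1 was 1.43 higher (-0.53 to 2.04) and Pcyt1a 1.10 higher (-0.04 to 2.81), both with plate pairs on either side of 0. Compared on the same plate, Pcyt1a was higher in ciliated cells on all 3 plates (0.56 to 1.88), and Srebf1 on 2 of 3 (-0.53 to 1.81). Without plate 3 Srebf1 was 0.49 higher, and without plate 4 Pcyt1a was 0.66 higher. Leaving out 1 ciliated cell brought Pcyt1a down to 0.52, and leaving out another brought Acaca from -0.24 to -1.49. Thus, over all cells, 2 genes were higher and 3 lower, where 43% of all genes were higher and 14.9% lower. The median of all genes was itself 0.74 higher in ciliated cells, and relative to that shift Srebf1 and Pcyt1a were under 2-fold higher. When totals left out mitochondrial and the 10 most abundant genes, 0 genes were higher, 29.2% of all genes were higher and 24.95% lower, and the median of all genes was 0.08. With median-of-ratios scaling 0 of the 9 genes were higher, against 31.9% of all genes, and 20.1% of all genes were lower.

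BASCs of the 2 lines were compared with each other next. Tracer BASCs had 0 genes 2-fold higher and 0 lower than Scgb1a1-TD BASCs (21.1% and 10.2% of all genes, or 15.8% and 14.1% with median-of-ratios scaling, where 2 of the 9 were lower). Scd1 differed by -0.91 (-0.97 to -0.46), Scd2 by -0.85 (-1.46 to -0.55), Elovl1 by -0.66 (-1.03 to -0.10) and Fasn by -0.43 (-0.89 to -0.12), each below 0 in all 6 plate pairs. The Scd1 pooled level was 7393 and 7813 CPM on the 2 plates of tracer BASCs and 10780, 14508 and 14136 CPM on the 3 plates of Scgb1a1-TD BASCs, with no overlap between them. Of 9 measured circadian genes 8 were higher in tracer BASCs, and the part of sampling time was not tested. Club cells of the 2 lines differed in 3 genes: Acaca was 2.13 higher in tracer club cells (0.09 to 4.10), Acsl4 1.31 (1.13 to 1.93) and Fasn 1.29 (0.40 to 1.83), and 0 were lower, against 21.1% and 29.1% of all genes (17.1% and 36.4% when totals left out mitochondrial and the 10 most abundant genes). The Acaca and Fasn differences rested on single cells: without the ninth tracer club cell Acaca was 0.49 and Fasn 0.86 higher, and without the first Fasn was 0.85 higher. Acsl4 was 1.12 to 1.44 higher whichever tracer club cell was left out. The AT2 marker sum of tracer club cells was 52443 CPM and that of Scgb1a1-TD club cells 32953, and its part in the difference was not tested.

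Other genes of the pathway were read against the same shares of all genes, which in BASCs against club cells of Scgb1a1-TD were 17.2% higher and 24.7% lower. Of the 24 further genes of fatty acid synthesis, elongation and desaturation, 19 were measured in BASCs against club cells of Scgb1a1-TD, 7 were higher and 4 lower. In AT2 cells against the same club cells 4 of 17 were higher and 3 lower (19.5% and 15.8% of all genes), and in tracer BASCs 6 of 19 and 3 (18.5% and 15.2%). In Scgb1a1-TD BASCs Fads1, the delta-5 desaturase of polyunsaturated chains, was 2.01 higher, Thrsp, a lipogenic regulator, 2.73 higher, and Me1, the malic enzyme that yields NADPH, 1.38 higher. Acss2, which makes acetyl-CoA from acetate, differed by -1.97. Acss2 differed by -3.55 in AT2 cells and by -2.79 in tracer BASCs against the same club cells, where Acly was 1.73 and 1.62 higher.

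Acyl-CoA synthetases differed by isoform. Of 10 measured genes in the list of acyl-CoA synthetases and fatty acid uptake, 4 were higher and 3 lower in Scgb1a1-TD BASCs than in club cells. Acsl1 differed by -2.92 and Acsl3 by -1.44, whereas Acsl5 was 1.16 and the member Acsl4 1.91 higher. The fatty acid binding protein Fabp5 was 6.62 higher, at 680 against 5.95 CPM. In AT2 cells against club cells 2 genes of the list were higher and 2 lower (19.5% and 15.8% of all genes), and in tracer BASCs 2 and 2 (18.5% and 15.2%).

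Of 23 measured genes of phosphatidylcholine and glycerolipid synthesis, 6 were higher and 5 lower in Scgb1a1-TD BASCs than in club cells. Lpcat1, which remodels lysophosphatidylcholine into the saturated surfactant lipid, was 4.34 higher (1587 against 77.5 CPM), Lpin1, a phosphatidate phosphatase, 1.99 and Pcyt2, the ethanolamine branch counterpart of Pcyt1a, 1.79 higher. Prdx6, which also has phospholipase activity, differed by -3.60 and the phospholipase Pla2g4a by -2.73. In AT2 cells 10 of 24 were higher and 3 lower (19.5% and 15.8% of all genes). The SREBP list had 5 of 12 higher and 1 lower in Scgb1a1-TD BASCs, 6 of 13 and 0 in AT2 cells, and 4 of 13 and 1 in tracer BASCs: Srebf2 was 1.56, 1.99 and 1.87 higher. All 16 measured sterol synthesis genes were higher in Scgb1a1-TD BASCs, and 11 of 16 in AT2 cells and in tracer BASCs. Of 15 measured fatty acid oxidation genes 0 were higher and 4 lower in Scgb1a1-TD BASCs, where 24.7% of all genes were lower.

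**Figure D4:**
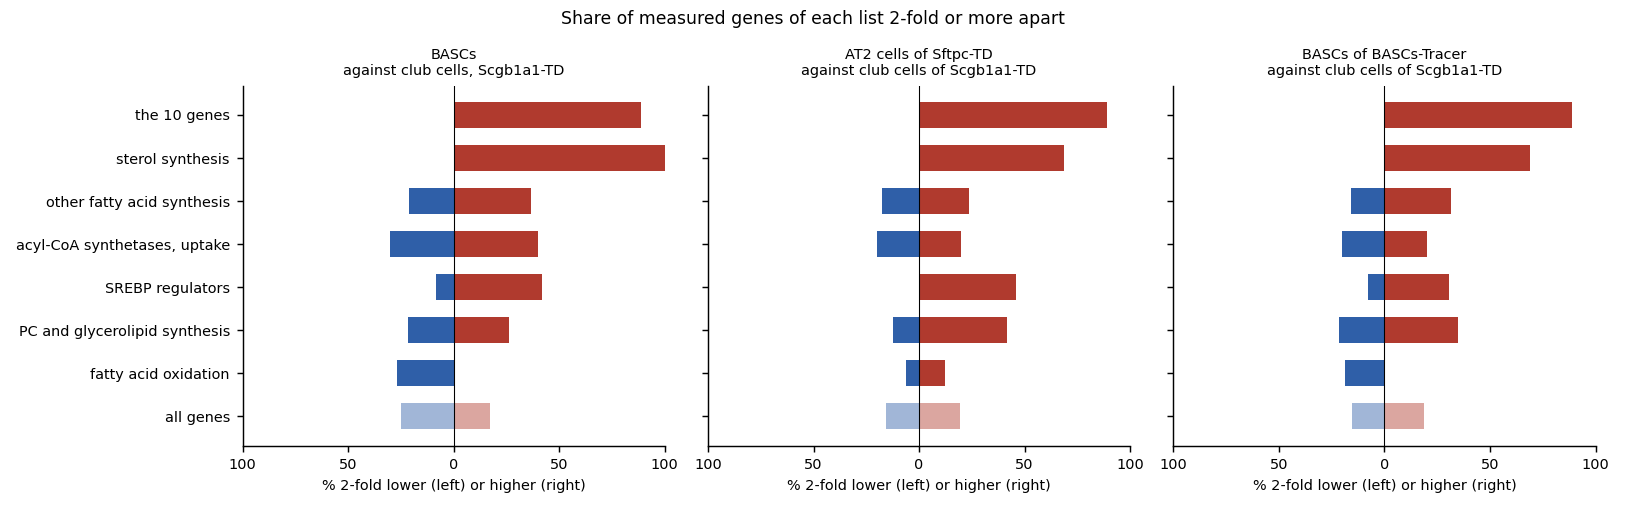
Bars give the percentage of measured genes of each list that were 2-fold or more higher (right, red) or lower (left, blue) in 3 comparisons with club cells of Scgb1a1-TD, with all genes in pale bars at the foot. The 10 genes and the sterol list reach furthest to the right, and the oxidation list has 0 genes higher in both BASC panels.

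Within a group, the genes varied together only weakly. Rank correlations over cells are given as a description. The cells of a group share libraries, plates and sorting, and sparse counts lower the values. Elovl6, read in few cells, was left out of the medians. Over the 36 pairs of the other 9 genes the median of Spearman's rho was 0.07 in AT2 cells, against 0.02 over all pairs of 3518 genes read in at least 50% of cells, and 10 pairs stood above the 90th percentile of all pairs, 0.13. In tracer BASCs the median was 0.12 against 0.03, with 15 pairs above 0.14 (0.1445, the 90th percentile). The pair Fasn and Scd1 had a rho of 0.29 in AT2 cells (0.32 and 0.27 on plates 4 and 5), 0.48 in tracer BASCs, 0.33 in club cells and 0.45 in 38 Scgb1a1-TD BASCs. In tracer BASCs Scd1 and Elovl1 had a rho of 0.41, Scd2 and Acly 0.41, and Fasn and Scd2 0.37. Some pairs were negative: Acsl4 and Pcyt1a had -0.17 in AT2 cells, and Scd1 and Pcyt1a -0.32 in Scgb1a1-TD BASCs.

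**Figure D5:**
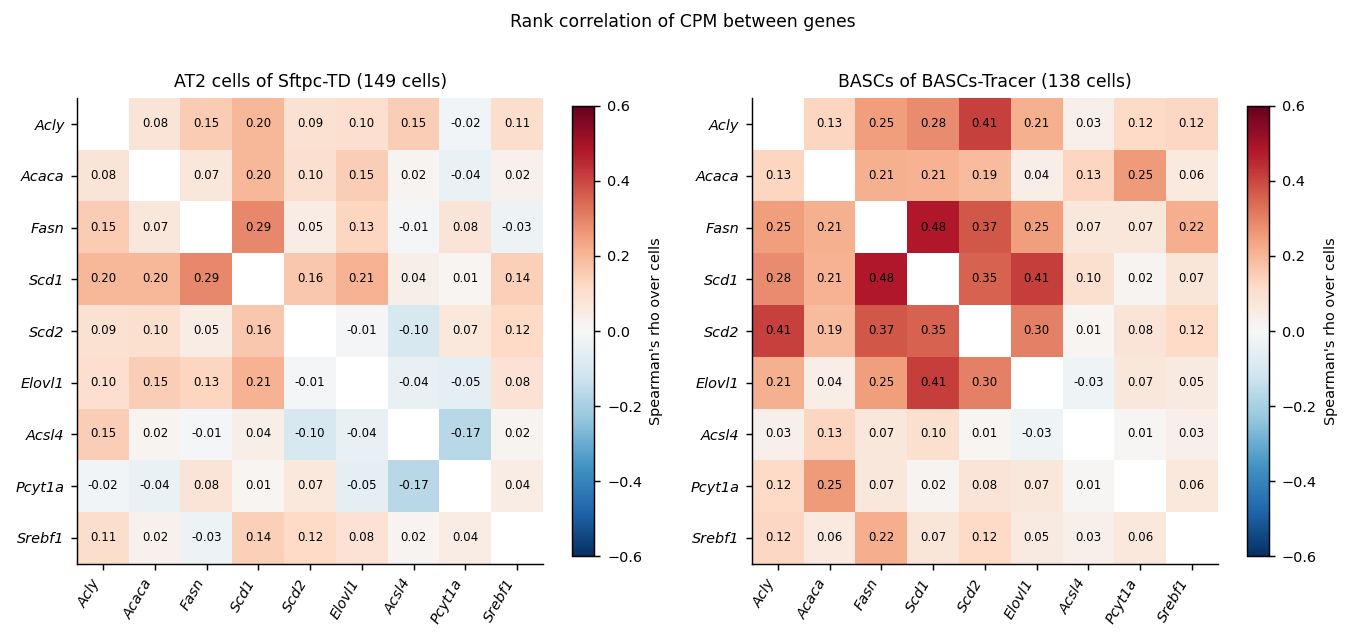
Each square is Spearman's rho between the CPM of 2 genes over the AT2 cells of Sftpc-TD (left) and the BASCs of BASCs-Tracer (right), on a colour scale from blue (negative) to red (positive). Fasn and Scd1 have 0.29 on the left and 0.48 on the right, and the block of Acly, Fasn, Scd1, Scd2 and Elovl1 is redder on the right.

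A score, the mean of the 10 genes' standardised log2 levels (CPM with 1 added) in each cell, was set by rank correlation against every other gene read in at least 50% of cells. In AT2 cells the most alike of 3100 genes were Fabp5 (rho 0.48), the surfactant protein gene Sftpb (0.43), Idi1 of sterol synthesis (0.42) and Lrg1 (0.39), followed by the phosphate transporter Slc34a2, Retsat, the lamellar body protein Lamp3 and Rab5b at 0.34 to 0.33. In tracer BASCs the most alike of 3467 were Slc34a2 (0.47), the lamellar body lipid transporter Abca3 (0.44), Id2 (0.42), Fabp5 (0.42), Lpcat1 (0.42), Arpc1b (0.41), Lamp3 (0.41) and Hdc (0.40). Of the 100 most alike genes of each group, 14 were shared, where 3100 genes were ranked in AT2 cells and 3467 in tracer BASCs. The overlap of lists ranked by other scores was not measured. The score had a rho of 0.34 with the number of genes read in AT2 cells and 0.41 in tracer BASCs, higher in cells with more genes read. Against Sftpc CPM its rho was -0.07 in AT2 cells, -0.34 in tracer BASCs, 0.29 in Scgb1a1-TD BASCs and 0.44 in club cells of Scgb1a1-TD. With the score taken from totals without mitochondrial and the 10 most abundant genes, these were 0.01, -0.25, 0.36 and 0.46. The sign thus differed between the BASCs of these 2 lines, and in AT2 cells it changed with the scaling. In club cells the gene most like the score was Cd74 (0.60), an AT2 and antigen presentation gene; whether AT2 RNA in those wells takes part was not tested.

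Over the 8 group means the 10 genes did not form 1 pattern. Pearson correlations of each gene with the mean of the members were 0.97 for Fasn, 0.95 for Acaca and Elovl1, 0.93 for Acly, 0.91 for Scd1, 0.87 for Scd2, 0.81 for Acsl4 and 0.65 for Srebf1, but -0.21 for Pcyt1a and -0.87 for the barely read Elovl6. Of 6064 other genes, the closest to the mean pattern were H2-Aa (0.98), an MHC class II gene, Snx25, Lyz1, Mylk and Hc. H2-Aa stood at 494 CPM in AT2 cells and 788 in tracer BASCs. In Scgb1a1-TD its level was 3.33 CPM for club cells and 2.04 CPM for ciliated cells. These correlations rest on 8 groups, which share lines and plates, and describe the order of groups only. Each of the 10 genes is part of the mean it was set against, which raises its value, whereas H2-Aa and the other genes are not.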

How the data were processed

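Single tdTomato-positive cells of 3 reporter lines were sequenced as full-length cDNA. Per the submitters' processing notes, HISAT2, HTSeq and GRCm38 were used; their versions were not given. Values in the deposited table are whole-number read counts, 1 row a gene and 1 column a cell, unscaled and without molecular identifiers. Columns were joined to samples by name, and 0 columns were left unmatched. No 2 cells held identical counts. No doublet caller was run, and all 480 cells were kept.

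Reads were summed over the cells of a line and sub-type and expressed as CPM, with exact Poisson intervals; ratios used 1 CPM added. Genes with 5 CPM or more in either group were compared, and 2-fold was the threshold. Exon lengths came from GENCODE M21. Scripts were tested on simulated data (Python 3.11.15, numpy 2.4.6, pandas 2.3.3, scipy 1.17.1). The genes compared with the score were the 8 most alike in AT2 cells and tracer BASCs; Cd74 and the 5 genes of the group pattern, like the pathway genes named, were picked from their ranked values. The members and lists were chosen with earlier results of these data known. Alternatives covered the scaling, the pseudocount, filters, plates or single cells left out, thinning and marker-positive cells.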

Additional observations from a re-analysis of the deposited data

Results flagged for a closer look

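Among the 6 AT2 cells of BASCs-Tracer 1 cell stood apart for 2 genes. Its Scd2 level was 1839 CPM, where the nearest other cell had 617 CPM, and its Srebf1 level was 1324 CPM, where the nearest other had 255.2 CPM. The same cell, the second of the 6 on plate 1, also held the highest Fasn (2381 CPM), Elovl1 (3043 CPM) and Acaca (565 CPM) of the 6, and the lowest Acsl4 (93.8 CPM). The search compared the gap to the nearest cell with the range of the group, by a rule that marks about 1 in 20 groups of normally distributed values. Single-cell levels need not be normally distributed, and how often chance marks a group of them was not measured.

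Lone cells belonged to no comparison. The 1 cell of Scgb1a1-TD labelled AT2 held more than 3 reads of 9 of the 10 genes, with Scd1 at 20013 CPM, Fasn at 1510 CPM and Acsl4 at 700.5 CPM. The 1 ciliated cell of BASCs-Tracer held more than 3 reads of 7 genes, with Scd1 at 803 CPM and Pcyt1a at 406.4 CPM, and its AT2 marker sum was 236624 CPM.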

How the results depend on the processing

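Over all alternatives tried, no ratio of a measured gene that was 2-fold or more apart changed sign. Medians nearer to 0 did: that of ciliated against club cells (-0.24) became 0.56 without plate 4, that of tracer BASCs against AT2 cells (0.03) became -0.28 without plate 1, and that of BASCs against AT2 cells in Sftpc-TD (-0.09) became 0.33 with the median over cells. Of the recomputed values 9 median ratios, 27 counts of genes lower, 15 counts of genes higher and 0 of 32 median correlations (over all 45 pairs) moved. For one gene at a time, 1543 of 1710 ratios did not move.

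Taking the median over cells in place of the pooled level gave median log2 differences of 4.23 for BASCs against club cells in Scgb1a1-TD, 3.86 for AT2 against club cells, 3.60 for tracer BASCs against club cells, 2.43 for BASCs against club cells in BASCs-Tracer, -1.17 for ciliated against club cells and 1.38 for the club cells of the 2 lines. With it the genes lower became 1, 1, 1, 5, 4 and 1 for AT2 against club cells, tracer BASCs against club cells, BASCs against club cells in BASCs-Tracer, ciliated against club cells, the BASCs of the 2 lines and the club cells of the 2 lines, where 43.9%, 49.2%, 50.8%, 22.2%, 25.1% and 23.9% of all genes were lower, and 0 for BASCs against AT2 cells in Sftpc-TD (15.5%). Genes higher became 1 for tracer BASCs against AT2 cells (12.1% of all genes), 2 for BASCs against AT2 cells in Sftpc-TD (35.8%) and 5 for the club cells of the 2 lines (30.5%). Adding 10 CPM gave 2.12 for BASCs against club cells in Scgb1a1-TD. With only shared plates the median was 1.53 for tracer BASCs against club cells, with 3 genes lower between the BASCs (25.6% of all genes) and 1 lower between the club cells of the 2 lines (40.3%).

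Without a filter on low values 1 gene was lower, the unmeasured Elovl6 being counted, for BASCs against club cells in either line and for AT2 against club cells. In BASCs-Tracer 1 gene was also lower at 1.5-fold, with thinning, the mean over cells and either scaling (median-of-ratios, or totals without mitochondrial and top 10 genes). Except at 1.5-fold, 17.03% to 26.3% of all genes were lower. In ciliated cells genes higher became 1 with the mean over cells (43.2% of all genes) or thinning (43.4%) and 0 with either scaling (31.9% and 29.2%). Between the BASCs of the 2 lines 2 genes were lower with either scaling (14.1% and 14.6% of all genes) and 3 at 1.5-fold. Between the club cells 5 were higher at 1.5-fold. Shares of all genes were not computed at 1.5-fold. In Sftpc-TD BASCs against AT2 cells 0 were higher after thinning (18.15%).

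Leaving out each plate gave medians of -0.75 to 0.56 for ciliated against club cells, the highest without plate 4, and 1 to 2 genes higher (42.1% to 45.4% of all genes). It gave 0 to 2 genes lower for BASCs against club cells in BASCs-Tracer (2 without plate 2), 0 to 1 lower for the BASCs of the 2 lines, and 3 to 7 higher (7 without plate 2) and 0 to 1 lower for the club cells. An alternative chosen after seeing the data removed cells whose leukocyte marker sum was 50 CPM or more. Then 0 genes were higher and 2 lower for BASCs against AT2 cells in Sftpc-TD (16.98% and 51.2% of all genes), 2 were lower for BASCs against club cells in BASCs-Tracer (23.7%) and 5 were higher between the club cells (24.8%). Another, leaving out each cell of a group of 24 or fewer in turn, gave medians of -0.50 to 0.08 for ciliated against club cells, 1.59 to 2.21 for BASCs against club cells in BASCs-Tracer and 0.49 to 0.90 for the club cells, with 1 to 2, 6 and 2 to 4 genes higher and 3 to 4, 0 to 1 and 0 lower. The causes were not tested.

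Scaling moved the median of all genes from -0.33 to 0.07 for BASCs against AT2 cells in Sftpc-TD and from 0.74 to 0.28 for ciliated against club cells with median-of-ratios, and with totals without the top genes from 0.17 to 0.50 for BASCs against club cells in BASCs-Tracer and from -0.07 to -0.39 for the club cells. No paired analysis was possible because each line is 1 sample, so that no test could be blocked; sub-types of a line share plates, and same-plate differences are given as values. Thinning lowered the share of AT2 cells with a Pcyt1a read from 72.5% to 41.9%, of Acaca from 77.2% to 62.2% and of Srebf1 from 74.5% to 61.5%.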
